A study of Mus musculus with 11 samples.

Results

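Potassium channels let potassium ions leave the cell, which sets the resting membrane potential and ends each action potential. In the heart the voltage-gated Kv channels carry the transient outward and delayed rectifier currents, the inward rectifiers hold the resting potential, and auxiliary subunits change the gating and surface number of the pores. Channels of the same superfamily also work in vascular muscle, endothelium, fibroblasts and leukocytes, so that a whole-tissue level is a mixture of cell types.

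The potassium channel genes were taken as the protein-coding genes whose mouse symbol is Kcn followed by letters and a number. They numbered 92 of the 55421 genes of the count table, and 54 of them had at least 10 counts in at least 3 of 11 libraries and are described here. Of the other 38 genes, 11 had no count in any library, 32 (those 11 included) had at most 5 counts in every library, and the highest single value was 14 counts, for Kcng4. Kcne2, a small partner of Kcnh2 and Kcnq1, was among the 11 genes without a count.

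RNA was sequenced from the hearts of 11 female C57BL/6J mice, 8 weeks old. In 8 mice a myocardial infarction (MI) was induced by ligation of the left anterior descending (LAD) artery, and the infarct with its border zone was removed 3 days later. Of these mice, 4 received GI254023X, an inhibitor of the shedding protease ADAM10 (the A10i group, 100 mg/kg by osmotic minipump), and 4 received the solvent (the DMSO group), while 3 sham-operated mice also received DMSO and gave healthy heart tissue, with no day after surgery in their labels. The labels name no transgene and give 1 mouse for each library.

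Libraries held 21702623 to 29511768 counts, of which mitochondrial genes took 21.5 to 22.2% in sham, 14.8 to 18.6% in DMSO and 15.7 to 17.9% in A10i hearts. The defining markers of heart muscle were present, with 15 cardiomyocyte genes at a mean of 17.07 to 17.12 log2 normalised counts in sham hearts, 16.20 to 16.71 in DMSO hearts and 16.41 to 16.83 in A10i hearts, and none of them at 0. The 12 macrophage and monocyte markers averaged 8.44 to 8.64 in sham, 9.55 to 10.33 in DMSO and 9.92 to 10.71 in A10i hearts, and the 12 fibroblast markers 11.18 to 11.26, 11.62 to 12.53 and 12.49 to 12.85. Of the 12 neutrophil markers, Ly6g and Elane were at 0 in sham hearts, and the list averaged 0.52 to 0.87, 4.83 to 4.96 and 2.78 to 4.20 log2 normalised counts in sham, DMSO and A10i hearts. In bulk tissue, fewer cells of a type and less RNA per cell cannot be told apart.

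Levels between genes were compared as normalised counts per kilobase of exon. Kcnk3, which encodes the two-pore channel TASK-1, was highest in every group, at 2070 ± 66.7 in sham (SD, n = 3), 1770 ± 152 in DMSO and 1780 ± 271 in A10i hearts (n = 4 each). In sham hearts it was followed by Kcnip2 at 1530 ± 20.8, Kcnj11 at 1400 ± 30.2, Kcng2 at 1310 ± 27.0 and Kcnh2 at 790 ± 21.6. In infarcted hearts Kcnip2 was at 738 ± 342 (DMSO) and 711 ± 181 (A10i), below Kcng2 at 1230 ± 250 and 1100 ± 123. The levels of Kcnip2 and Kcnj11 (851 ± 131) did not differ beyond their spread in DMSO hearts. The 5 highest genes held 64.2% of the summed level per length of the 54 genes in sham, 61.8% in DMSO and 61.0% in A10i hearts, and the 10 highest held 84.0, 81.5 and 80.4%.

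**Figure D1:**
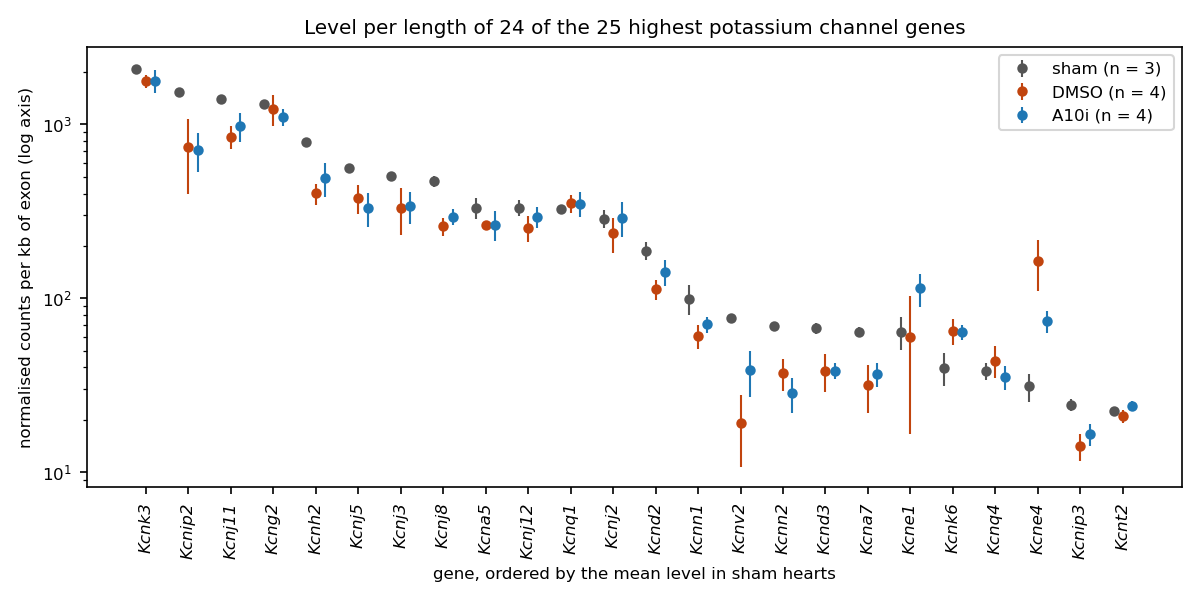
Mean normalised counts per kilobase of exon (log axis, bars ± SD) of 24 of the 25 potassium channel genes with the highest level in sham hearts, for sham (n = 3), DMSO (n = 4) and A10i (n = 4) mice. Kcnk3 is at the left in all groups at 1770 to 2070, and Kcne4, at 31.1 in sham, reaches 163 in DMSO and 74.1 in A10i hearts.

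Summed over the 54 genes, normalised counts were 44670, 45433 and 45604 in the 3 sham mice. The sums were 31227, 32398, 37469 and 27787 in the DMSO mice and 27088, 38272, 34150 and 34700 in the A10i mice. All infarcted hearts lay below all sham hearts, while the DMSO and A10i sums overlapped.

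Infarction was compared with sham by edgeR's quasi-likelihood test on all genes, with an adjusted p under 0.01 as the threshold. Of the 54 genes, 49 passed the filter on low counts in the DMSO and sham comparison, and 51 in that of A10i and sham. Kcna3, Kcnab3 and Kcnh3 were left out in both comparisons with sham, and Kcnc4 and Kcnj4 in that of DMSO alone. A gene near 0 in sham can pass this filter only through its level in infarcted hearts. Among the genes that rose, this held for Kcnn4 (5, 15 and 7 counts as deposited in sham) and Kcnj14 (11, 7 and 4). The numbers of called genes therefore describe the tested genes and not the family as a whole.

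Between DMSO and sham hearts, 12 potassium channel genes fell and 7 rose. Among the genes that fell were Kcnd2, Kcnd3, Kcna7, Kcnh2, Kcnv2, Kcnip3, Kcnj5, Kcnj8, Kcnj11, Kcnn1 and Kcnn2, and those that rose were Kcne4, Kcnab2, Kcnn4, Kcnk13, Kcnj14, Kcnj15 and Kcnd1. The 12 lower genes were 24.5% of the tested members, beside 9.6% of the 17117 genes tested, and the 7 higher genes were 14.3%, close to the 12.9% of all genes. The median log2 fold change was -0.23 over the tested members and 0.00 over all genes tested. Of the 15 cardiomyocyte markers, 7 fell and 0 rose, with a median of -0.62. Without 1 library the counts ranged from 4 to 13 lower and from 2 to 7 higher genes, and they were over 1.5 times smaller without S1 (7 lower, 2 higher), S2 (4 and 3), S3 (5 and 2) or A127 (7 and 3). Scaling by library size alone gave 6 lower and 9 higher genes and moved the median of all genes to 0.21. The shares of all genes called in these other fits are not given here, so that their counts have no background beside them.

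Between A10i and sham hearts, 9 genes fell and 8 rose. Those that fell included Kcnd3, Kcna7, Kcnh2, Kcnv2, Kcnip2, Kcnj5, Kcnj8 and Kcnn2, and those that rose were Kcne4, Kcnab2, Kcnn4, Kcnk13, Kcnk6, Kcnj14, Kcnj15 and Kcnd1. The shares were 17.6% lower and 15.7% higher, beside 9.11% and 13.7% of the 16971 genes tested, with a median log2 fold change of -0.11 against -0.01. The cardiomyocyte list had 4 lower and 0 higher genes of 15, with a median of -0.43. Both comparisons used the same 3 sham libraries, so that their values are given side by side and not as separate evidence. Leaving out 1 library gave 5 to 11 lower and 5 to 9 higher genes, with 5 lower genes without S1, S2, S3 or A120 and 5 higher genes without S2 or S3. The shares of all genes in these fits are not given here either.

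**Figure D2:**
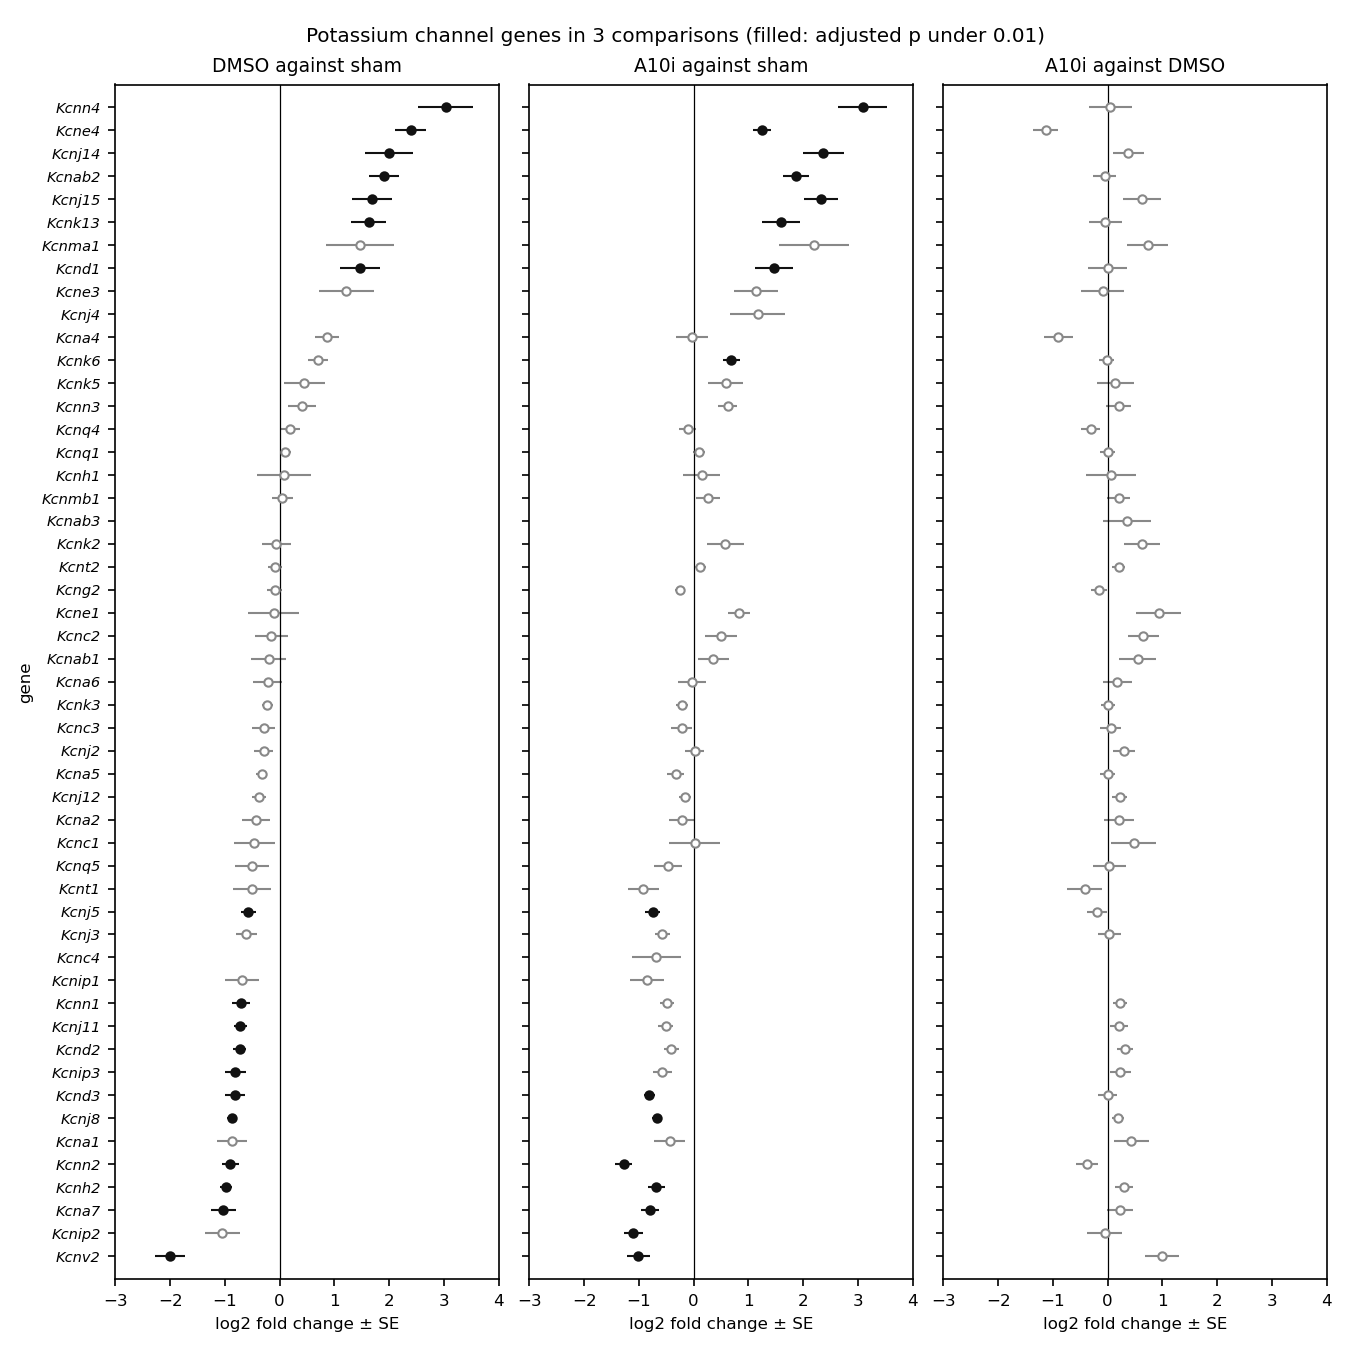
Log2 fold changes (points) with their SE (bars) of potassium channel genes that passed the filter in at least 1 comparison, for DMSO against sham, A10i against sham and A10i against DMSO. Filled points have an adjusted p under 0.01. They lie on both sides of 0 in the comparisons with sham, with Kcnn4 highest at 3.03 and Kcnv2 lowest for DMSO, and number 0 between A10i and DMSO.

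For 3 genes that are central below, the 250 bases upstream of the RefSeq transcription start are given, as promoter context for a pair of genes whose products form 1 channel and for the gene with the highest fold change. Kcnip2 and Kcnd2 encode the auxiliary and the pore-forming part of the fast transient outward channel, and Kcnn4 encodes an intermediate-conductance channel opened by calcium. The sequences come from RefSeq on GRCm38.p6, at chr19:45816064-45816313 on the minus strand for Kcnip2, at chr6:21215096-21215345 on the plus strand for Kcnd2 and at chr7:24370013-24370262 on the plus strand for Kcnn4, and each ends upstream of the gene's first annotated exon. Written 5' to 3' on the strand of the gene, capitals mark the GC box GGGCGG (or CCGCCC, the same site on the other strand) and the E-box CACGTG.
Kcnip2 upstream: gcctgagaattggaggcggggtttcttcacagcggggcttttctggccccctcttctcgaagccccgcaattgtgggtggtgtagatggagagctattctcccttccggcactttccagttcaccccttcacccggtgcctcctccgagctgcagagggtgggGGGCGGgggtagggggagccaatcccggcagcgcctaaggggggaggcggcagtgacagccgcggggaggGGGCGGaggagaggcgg
Kcnd2 upstream: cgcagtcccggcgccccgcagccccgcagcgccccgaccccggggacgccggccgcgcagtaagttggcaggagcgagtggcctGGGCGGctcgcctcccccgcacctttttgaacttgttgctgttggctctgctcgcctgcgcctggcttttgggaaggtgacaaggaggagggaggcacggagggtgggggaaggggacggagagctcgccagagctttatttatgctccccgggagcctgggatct
Kcnn4 upstream: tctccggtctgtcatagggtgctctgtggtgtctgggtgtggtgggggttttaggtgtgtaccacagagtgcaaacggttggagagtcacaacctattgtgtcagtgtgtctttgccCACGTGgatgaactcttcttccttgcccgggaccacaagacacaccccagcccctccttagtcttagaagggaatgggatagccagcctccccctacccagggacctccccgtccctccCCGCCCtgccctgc
The GC content of these windows was 66.8% for Kcnip2, 68.8% for Kcnd2 and 58.8% for Kcnn4. The RefSeq table held 37 of the 54 genes. Searched on both strands, the GC box was in 22 of these 37 windows (59.5%), beside 35.4% of the windows of all 27025 genes of the table, and in 6 of the 9 windows of genes that fell in DMSO or A10i against sham. The letters TATAAA were in 0 of the 37 windows and in 14.3% of all. CACGTG was in 4 of 37 (10.8%, all genes 6.86%), the AP-1 letters TGANTCA in 3 (8.11%, all genes 7.82%) and the GATA letters AGATAA in 1 (2.7%, all genes 11.4%). A match describes letters in the window and not a bound site.

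The pore-forming genes of the transient outward current, Kcnd2 (Kv4.2) and Kcnd3 (Kv4.3), were lower in all infarcted than in all sham hearts. Kcnd2 had 962, 1083 and 855 normalised counts in the sham mice S1, S2 and S3. It had 619, 602, 645 and 472 in the DMSO mice A105, A127, A128 and A129, and 551, 834, 785 and 737 in the A10i mice A116, A117, A119 and A120. Every sham value was above every infarcted one, by little for A117. The log2 fold change ± SE was -0.73 ± 0.12 for DMSO (adjusted p = 0.00155) and -0.41 ± 0.14 for A10i (adjusted p = 0.0398, not under 0.01), both against sham.

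Kcnd3 had 627, 613 and 697 normalised counts in sham, 416, 365, 449 and 241 in DMSO and 321, 414, 357 and 378 in A10i hearts. It fell by 0.81 ± 0.18 on the log2 scale in DMSO (adjusted p = 0.00701) and by 0.81 ± 0.10 in A10i hearts (adjusted p = 0.000349). Kcnd1, the third Kv4 pore, was low in sham hearts, at 14.4 to 18.2 normalised counts, and rose to 33.4 to 77.3 in DMSO and 23.0 to 62.9 in A10i hearts. The counting did not name a strand setting, and 1.72% of the exon bases of Kcnd3 are shared with the antisense gene Kcnd3os, which averaged 20.5 counts against 442 for Kcnd3.

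Kcnip2 (chr19:45791839-45816061, mm10) encodes KChIP2, the cytosolic subunit that Kv4 pores need for full transient outward current. Its normalised counts were 5650, 5662 and 5524 in the 3 sham hearts. In the DMSO mice A105, A127, A128 and A129 they were 1796, 3640, 3936 and 1470, and in the A10i mice 1928, 2702, 3490 and 2326. All 8 infarcted hearts lay below all sham hearts, and the DMSO hearts were the more spread, with A105 and A129 below all A10i hearts and A127 and A128 above all of them. The log2 fold change was -1.05 ± 0.32 in DMSO (adjusted p = 0.0271, not past 0.01) and -1.10 ± 0.17 in A10i hearts (adjusted p = 0.00144), so that Kcnip2 was called in A10i alone, although the difference between A10i and DMSO was -0.05 ± 0.32 (adjusted p = 0.967). Without a low-count filter, or with all libraries in 1 fit, the A10i call ended.

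The Kv1 pores carry delayed rectifier and slow transient outward currents. Kcna5 (Kv1.5), the pore of the ultrarapid current, had 1006, 1049 and 796 normalised counts in sham, 747, 807, 733 and 748 in DMSO and 537, 863, 795 and 830 in A10i hearts. The third sham mouse lay within the range of both infarcted groups, and neither difference passed the threshold, at -0.33 ± 0.10 for DMSO (adjusted p = 0.0275) and -0.33 ± 0.16 for A10i (adjusted p = 0.143). Kcna4 (Kv1.4), which carries the slow transient outward current, had 37.7, 33.5 and 46.4 in sham, 88.4, 56.6, 73.1 and 69.2 in DMSO and 28.4, 25.7, 43.3 and 56.3 in A10i hearts. All DMSO hearts were above all sham hearts and, by little (lowest DMSO 56.6, highest A10i 56.3), above all A10i hearts. With a log2 fold change of 0.87 ± 0.22 and an adjusted p of 0.0126 the difference of DMSO from sham did not reach 0.01. DESeq2 (adjusted p = 0.0059) and scaling by library size alone (adjusted p = 0.0044) called it, and A10i differed from sham by -0.03 ± 0.29 (adjusted p = 0.941). Kcna7 was the only Kv1 gene called, with 132 to 148 normalised counts in sham, 44.6 to 96.1 in DMSO and 63.9 to 91.0 in A10i hearts. Kcna3, a pore known from lymphocytes, was not tested, with 3.09 to 3.82 in sham, 5.10 to 15.1 in DMSO and 2.11 to 10.1 in A10i hearts, beside a T cell list that averaged 2.17 to 2.91, 1.82 to 2.91 and 2.12 to 3.33 log2 normalised counts.

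The ERG and Kv7 pores carry the rapid and slow delayed rectifier currents. Kcnh2 (ERG1) had 3743, 3795 and 3945 normalised counts in sham hearts, 1844, 1844, 2339 and 1740 in DMSO and 1727, 2891, 2173 and 2744 in A10i hearts. It fell by 0.98 ± 0.11 in DMSO (adjusted p = 0.000232) and by 0.68 ± 0.16 in A10i hearts (adjusted p = 0.00877). Kcnq1 (Kv7.1) was not called and had 1364, 1392 and 1274 in sham, 1309, 1593, 1582 and 1278 in DMSO and 1210, 1461, 1319 and 1745 in A10i hearts, with log2 fold changes of 0.10 ± 0.10 (adjusted p = 0.452) and 0.10 ± 0.11 (adjusted p = 0.524). Kcnq1 shares 2.96% of its exon bases with the antisense gene Kcnq1ot1, which averaged 308 counts.

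Kcne1, the small partner that turns Kcnq1 into the slow delayed rectifier, had 204, 164 and 252 normalised counts in sham, 97.0, 390, 97.8 and 181 in DMSO and 252, 433, 392 and 386 in A10i hearts. The DMSO hearts lay on both sides of the sham range, whereas every A10i heart lay above it, A116 by so little that its rounded value equals that of S3. The differences from sham were -0.11 ± 0.46 for DMSO (adjusted p = 0.869) and 0.83 ± 0.20 for A10i (adjusted p = 0.0105), neither past 0.01, although DESeq2 called the latter (adjusted p = 0.000436).

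The silent modifiers form no channel alone and join other Kv pores. Kcnv2 had 375, 401 and 411 normalised counts in sham, 64.7, 164, 83.3 and 83.3 in DMSO and 118, 251, 193 and 224 in A10i hearts. This was the deepest decrease of the family, by 2.00 ± 0.27 on the log2 scale in DMSO (0.251 of the sham level, adjusted p = 0.00073), and in A10i hearts Kcnv2 fell by 1.01 ± 0.21 (0.497 of the sham level, adjusted p = 0.00525). Kcng2, the other described modifier, had 3816 to 3969 normalised counts in sham, 2974 to 4401 in DMSO and 2731 to 3495 in A10i hearts, and was not called. It shares 9.1% of its exon bases with the opposite-strand gene D330025C20Rik.

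**Figure D3:**
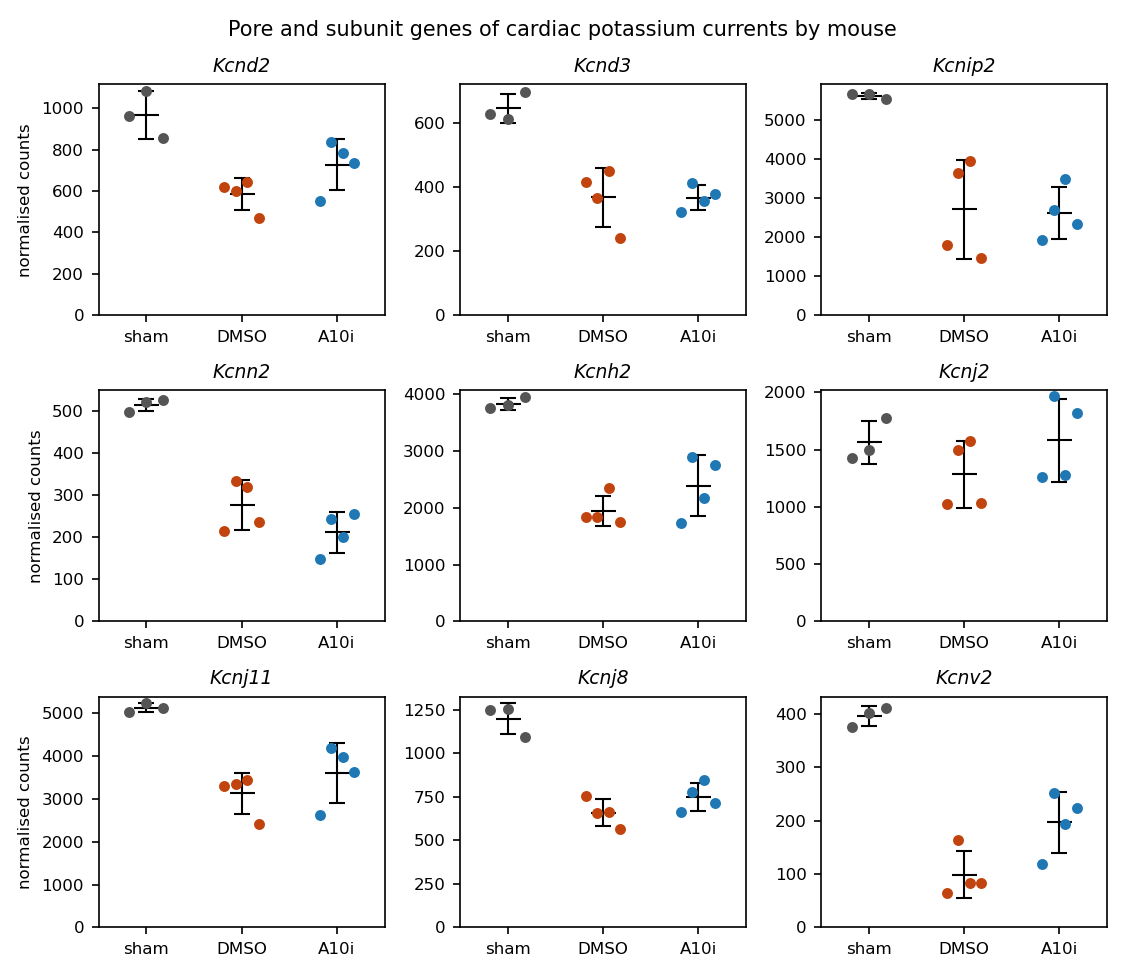
Normalised counts by mouse (points) with group mean and SD (black bars) of 9 potassium channel genes in sham (n = 3), DMSO (n = 4) and A10i (n = 4) hearts, each on an axis from 0. Kcnn2 at 148 to 335 and Kcnv2 at 64.7 to 251 in infarcted hearts lie apart from the sham mice, while Kcnj2 overlaps and Kcnip2 spreads from 1470 to 3936 among the DMSO mice.

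Among the inward rectifiers, the classic IK1 pores Kcnj2 and Kcnj12 were not called. Kcnj2 (Kir2.1) had 1424, 1493 and 1775 normalised counts in sham, 1029, 1495, 1572 and 1038 in DMSO and 1264, 1968, 1277 and 1818 in A10i hearts, with overlapping groups. Its log2 fold changes were -0.29 ± 0.17 for DMSO (adjusted p = 0.197) and 0.02 ± 0.17 for A10i (adjusted p = 0.939). Kcnj12 (Kir2.2) had 824 to 1009 in sham, 613 to 865 in DMSO and 664 to 914 in A10i hearts, with -0.38 ± 0.13 (adjusted p = 0.0396) and -0.16 ± 0.11 (adjusted p = 0.273), and without A128 it was called for DMSO (adjusted p = 0.00452).

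Kcnj3 and Kcnj5 form the acetylcholine-gated channel, which is best known from atria and nodes. Kcnj5 had 2592, 2590 and 2669 normalised counts in sham, 1905, 1472, 2187 and 1493 in DMSO and 1171, 1982, 1572 and 1468 in A10i hearts, and fell by 0.57 ± 0.13 (adjusted p = 0.0085) and 0.75 ± 0.14 (adjusted p = 0.00386). Kcnj3 had 2569, 2704 and 2610 in sham, 1398, 1529, 2517 and 1473 in DMSO and 1379, 2159, 1544 and 1983 in A10i hearts, also without overlap with sham. It was not called, at -0.61 ± 0.19 (adjusted p = 0.0324) and -0.57 ± 0.14 (adjusted p = 0.012), whereas DESeq2 called both differences (adjusted p = 0.00677 and 0.000749). The 6 atrial markers averaged 4.51 to 5.61 log2 normalised counts in sham, 5.23 to 6.22 in DMSO and 5.83 to 6.49 in A10i hearts, with Bmp10 at 0 in sham and DMSO, and their part in these values was not tested.

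Kcnj11 (Kir6.2) and Kcnj8 (Kir6.1) are the pores of ATP-sensitive channels of cardiomyocytes and of vascular mural cells. Kcnj11 had 5032, 5253 and 5122 normalised counts in sham, 3313, 3340, 3453 and 2412 in DMSO and 2626, 4195, 3974 and 3640 in A10i hearts. It fell by 0.72 ± 0.12 in DMSO hearts (adjusted p = 0.00171), and its log2 fold change in A10i hearts was -0.51 ± 0.14 (adjusted p = 0.0171, called by DESeq2 at 0.0021). Kcnj8 had 1249, 1253 and 1094 in sham, 754, 656, 660 and 567 in DMSO and 663, 776, 844 and 714 in A10i hearts, and fell by 0.87 ± 0.10 (adjusted p = 0.000325) and 0.67 ± 0.09 (adjusted p = 0.00056). Their sulfonylurea receptors fell too in DMSO hearts, Abcc8 by 0.57 ± 0.13 (adjusted p = 0.00808) and Abcc9 by 1.05 ± 0.16 (adjusted p = 0.00109). In A10i hearts Abcc9 fell by 0.91 ± 0.15 (adjusted p = 0.00144), and Abcc8 was not called, at -0.41 ± 0.16 (adjusted p = 0.0669). Among 12 smooth muscle and pericyte markers 5 fell and 1 rose in DMSO hearts, with a median of -0.13, and 4 fell and 2 rose in A10i hearts, with a median of 0.01. Lower markers were 41.7% in DMSO and 33.3% in A10i hearts, beside 9.6% and 9.11% of all genes tested. Higher markers were 8.33% and 16.7%, beside 12.9% and 13.7%.

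The two-pore genes give background leak currents. Kcnk3 had 8054, 8140 and 8551 normalised counts in sham, 7038, 6918, 7866 and 6405 in DMSO and 5787, 8415, 7132 and 6939 in A10i hearts, with -0.23 ± 0.10 (adjusted p = 0.0858) and -0.22 ± 0.11 (adjusted p = 0.153). Every DMSO heart was below every sham heart, while the A10i hearts overlapped with sham, and neither difference passed the threshold. It shares 5.76% of its exon bases with the opposite-strand transcript Gm9899. Kcnk13 had 28.8, 16.3 and 34.0 in sham, 63.6, 87.4, 60.4 and 114 in DMSO and 122, 71.2, 48.6 and 74.7 in A10i hearts, and rose by 1.63 ± 0.32 (adjusted p = 0.00381) and 1.59 ± 0.35 (adjusted p = 0.00613). Kcnk6 had 138 to 206 in sham, 225 to 330 in DMSO and 239 to 301 in A10i hearts and was called in A10i hearts, whereas its adjusted p in DMSO hearts was 0.012.

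The calcium-activated channels open when calcium rises in the cell. The small-conductance gene Kcnn2 (SK2) had 498, 522 and 526 normalised counts in sham, 216, 335, 320 and 237 in DMSO and 148, 244, 201 and 255 in A10i hearts, and fell by 0.90 ± 0.15 (adjusted p = 0.00175) and 1.28 ± 0.16 (adjusted p = 0.000435). Kcnn1 (SK1) had 394 to 557 in sham, 225 to 326 in DMSO and 280 to 362 in A10i hearts, and Kcnn3 (SK3) had 70.8 to 82.0, 60.4 to 132 and 101 to 144. Kcnma1, the large-conductance BK pore, was low, at 0, 5.74 and 5.16 in sham, 6.86 to 13.0 in DMSO and 10.3 to 24.7 in A10i hearts, and its smooth muscle partner Kcnmb1 had 52.1 to 57.7, 46.4 to 64.2 and 48.3 to 85.2. Neither was called, with log2 fold changes of 1.47 ± 0.62 and 2.20 ± 0.64 for Kcnma1 and 0.05 ± 0.19 and 0.26 ± 0.22 for Kcnmb1 (DMSO and A10i against sham), although DESeq2 called Kcnma1 for A10i (adjusted p = 0.00871).

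Kcnn4 (KCa3.1, chr7:24370263-24386690, mm10), whose upstream sequence is given above, is known from red blood cells, leukocytes and dividing fibroblasts rather than from cardiomyocytes. It had 5, 15 and 7 counts as deposited in sham, 45, 101, 51 and 126 in DMSO and 125, 83, 46 and 50 in A10i hearts. Every infarcted heart was above every sham heart, and the fold change was 8.19 in DMSO (log2 3.03 ± 0.50, adjusted p = 0.00176) and 8.51 in A10i hearts (log2 3.09 ± 0.45, adjusted p = 0.000938).

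Kcnab2 encodes the cytosolic Kv subunit beta 2. It had 75.3, 66.0 and 43.3 normalised counts in sham, 192, 221, 182 and 331 in DMSO and 291, 227, 174 and 202 in A10i hearts, and rose by 1.91 ± 0.27 (adjusted p = 0.00075) and 1.87 ± 0.23 (adjusted p = 0.000382), in all 16 fits of each comparison. Kcnj15 (Kir4.2) had 42.1, 32.5 and 27.8 in sham, 65.8, 95.1, 90.1 and 191 in DMSO and 261, 131, 122 and 171 in A10i hearts, and rose by 1.69 ± 0.37 (adjusted p = 0.00675) and 2.33 ± 0.31 (adjusted p = 0.00062). Kcnj14 (Kir2.4) was at 4.12 to 12.2 in sham, 19.4 to 45.2 in DMSO and 32.7 to 54.0 in A10i hearts. Together with these genes, 9 of 12 macrophage and monocyte markers, 5 of 12 fibroblast markers and all 6 tested neutrophil markers rose in DMSO hearts, and 11, 9 and 6 in A10i hearts. Of all genes tested, 12.9% and 13.7% rose. Only 6 of the 12 neutrophil markers passed the filter, and a marker near 0 in sham can pass only through infarcted hearts. The neutrophil count therefore describes the tested markers alone. The part of these 3 cell types in the higher potassium channel genes was not tested.

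Kcne4 (chr1:78816758-78820028, mm10) encodes a single-span subunit known to inhibit Kcnq1 and Kv1 pores. It had 85.3, 96.6 and 66.0 normalised counts in sham, 361, 272, 539 and 561 in DMSO and 195, 231, 162 and 200 in A10i hearts. The groups did not overlap, with sham lowest and DMSO highest. Against sham it rose 5.22-fold in DMSO (log2 2.39 ± 0.28, adjusted p = 0.000475) and 2.39-fold in A10i hearts (log2 1.25 ± 0.17, adjusted p = 0.00063), in all 16 fits of each comparison.

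**Figure D4:**
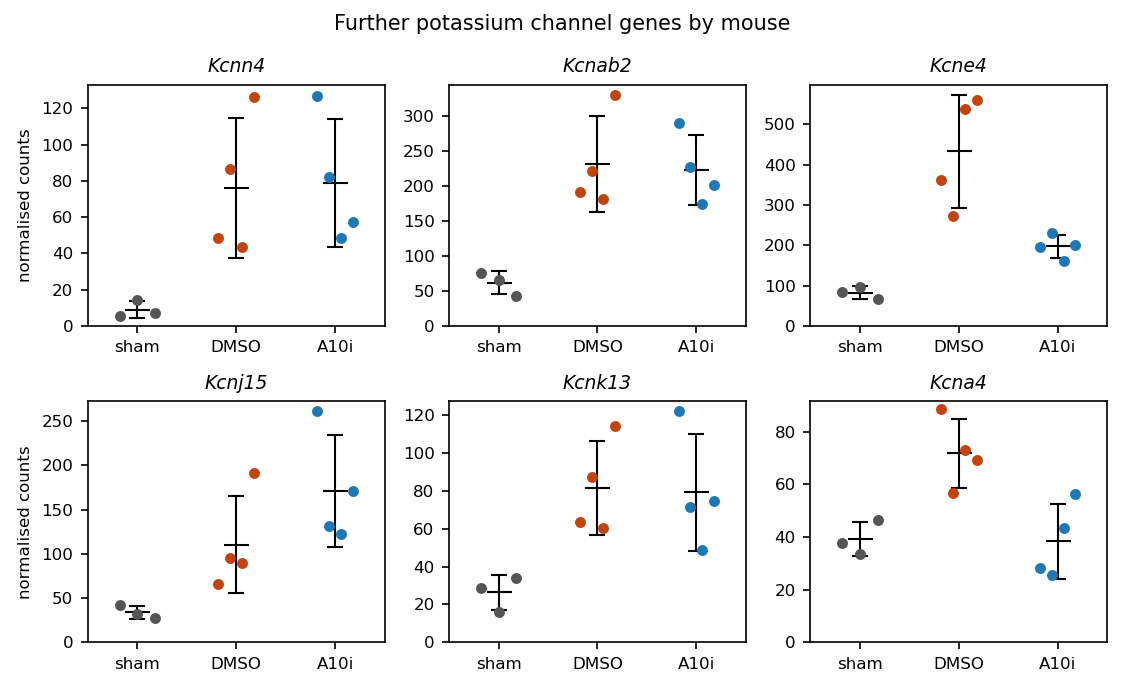
Normalised counts by mouse (points) with group mean and SD (black bars) of 6 potassium channel genes in sham (n = 3), DMSO (n = 4) and A10i (n = 4) hearts, each on an axis from 0. Kcne4 lies at 66.0 to 96.6 in sham, 272 to 561 in DMSO and 162 to 231 in A10i hearts, and Kcna4 at 56.6 to 88.4 in DMSO and 25.7 to 56.3 in A10i hearts, while the DMSO and A10i values of Kcnn4, Kcnab2, Kcnj15 and Kcnk13 overlap.

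Leaving out 1 library ended several of these calls. In the comparison of DMSO and sham, Kcnd2 was lost without S2, Kcnn4 without S1 or S3, and Kcnj11 and Kcnn2 without S2 or S3. Kcnd3, Kcnj15 and Kcnk13 were lost without any 1 sham mouse or A127, and Kcnj5 without any 1 sham mouse, A105, A127 or A129. In that of A10i and sham, Kcnj5, Kcnk13 and Kcnv2 were lost without any 1 sham mouse or A120, Kcnh2 also without A119, and Kcnk6 without S2 or S3. The DMSO calls of Kcna7, Kcnd1, Kcnip3, Kcnj14 and Kcnn1 and the A10i calls of Kcna7 and Kcnd1 were also lost with at least 1 omission. Over the omissions the log2 fold changes stayed between -0.81 and -0.64 for Kcnd2, -0.92 and -0.66 for Kcnd3, -0.77 and -0.61 for Kcnj11, -0.69 and -0.49 for Kcnj5, 1.30 and 1.86 for Kcnj15, 1.36 and 1.85 for Kcnk13 and 2.68 and 3.54 for Kcnn4, and at or below -0.81 for Kcnn2 (DMSO), and between -0.89 and -0.64 for Kcnj5, 1.31 and 1.82 for Kcnk13, -1.15 and -0.82 for Kcnv2 and -0.78 and -0.55 for Kcnh2 (A10i).

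To set the lower genes beside the loss of cardiomyocyte RNA, each gene's log2 level was set relative to the mean of the 15 cardiomyocyte markers in the same heart, as a description without a test. These markers themselves differed from sham by -0.60 in DMSO and -0.44 in A10i hearts (log2). Of the 12 genes that fell in DMSO hearts, 5, Kcnh2, Kcnj8, Kcnn2 and Kcnv2 among them, remained below sham in every mouse on this scale, and the other 7, Kcnd2, Kcnd3 and Kcnj11 among them, overlapped with sham. The gap was narrow for Kcnn2 (lowest sham -8.11, highest DMSO -8.12), Kcnj8 (-7.02 and -7.05) and Kcnh2 (-5.20 and -5.25). The 5 that remained lower were the only ones of the 49 tested members to lie wholly lower (10.2%), beside 2.65% of all genes tested. Because the markers themselves were lower, this scale moves every gene up against sham. On normalised counts 34.7% of the tested members and 23.6% of all genes lay wholly lower in DMSO hearts. Other members lay wholly higher than sham on the relative scale in both infarcted groups, Kcnk3, Kcng2 and Kcnq1 among them. Of the 9 that fell in A10i hearts, 7, Kcna7, Kcnd3, Kcnip2, Kcnj8, Kcnn2 and Kcnv2 among them, remained lower in every mouse, 13.7% of the 51 tested members beside 2.93% of all genes tested, and Kcnh2 and Kcnj5 overlapped. For Kcnj8 the gap was again narrow (lowest sham -7.02, highest A10i -7.03). Relative to the markers, Kcnv2 was at -8.52 to -8.43 in sham, -10.68 to -9.26 in DMSO and -9.52 to -8.67 in A10i hearts, whereas Kcnd2 was at -7.38 to -7.00, -7.44 to -7.11 and -7.30 to -6.94.

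**Figure D5:**
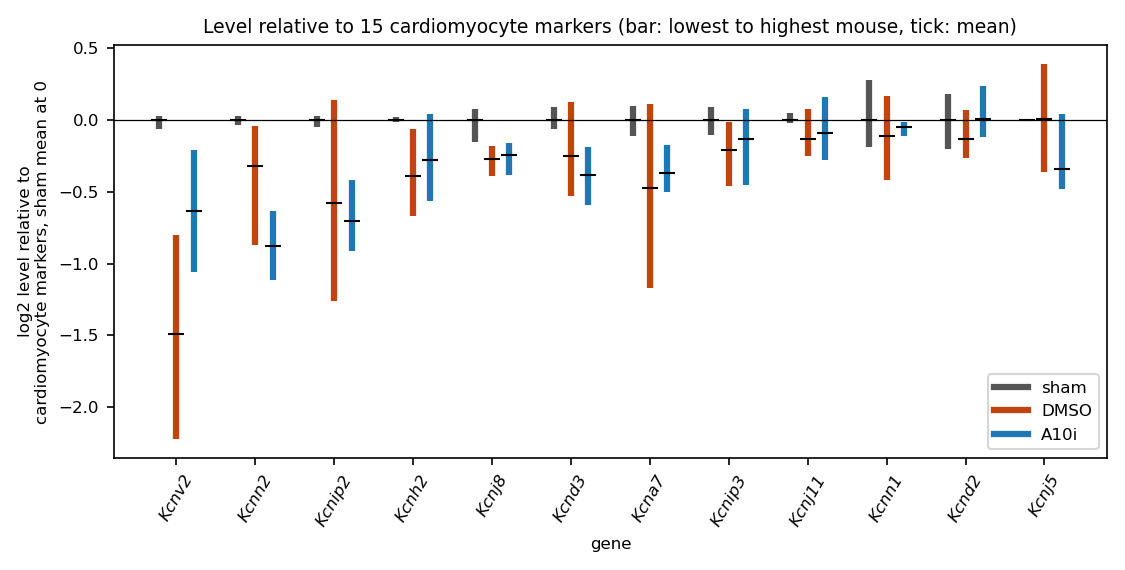
Log2 level relative to the mean of 15 cardiomyocyte markers in the same heart, shown as the difference from the sham mean, for 12 potassium channel genes that fell after infarction (bars from the lowest to the highest mouse, ticks at the mean; sham n = 3, DMSO n = 4, A10i n = 4). Kcnv2, Kcnn2 and Kcnj8 lie below the sham bars in both infarcted groups, Kcnj8 and, in DMSO hearts, Kcnn2 by little. Kcnd2, Kcnj11, Kcnip3, Kcnn1 and Kcnj5 overlap with the sham bars.

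Of 26 other genes of the cardiac action potential, 24 were tested. In DMSO hearts 6 fell (25%, beside 9.6% of all genes tested) and 1 rose (4.17%, beside 12.9%), with a median of -0.23. Scn4b, a sodium channel subunit, fell by 1.87 ± 0.10 (adjusted p = 1.15e-05), Trpm4 by 1.05 ± 0.10 (adjusted p = 0.000152) and Hcn2, a pacemaker channel, by 1.01 ± 0.16 (adjusted p = 0.00128), and the connexin Gja5 rose by 0.68 ± 0.16 (adjusted p = 0.00926). The main calcium pore Cacna1c was at -0.12 ± 0.14 (adjusted p = 0.531). In A10i hearts 9 fell, Scn4b by 1.49 ± 0.13 (adjusted p = 0.000135) and Trpm4 by 0.88 ± 0.08 among them, and 2 rose, with a median of -0.26. These shares were 37.5% lower and 8.33% higher, beside 9.11% and 13.7% of all genes tested.

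Treatment with A10i was compared directly with DMSO in the infarcted hearts. None of the 49 tested potassium channel genes passed the threshold in either direction with edgeR (0 higher and 0 lower), and 0% of all 16792 genes tested did. With DESeq2 at the same threshold the authors reported genes in both directions between these groups. The 0% therefore describes the edgeR fit and not an absence of differences. At an unadjusted p under 0.05, 5 genes were higher (10.2%, beside 7.1% of all genes) and 2 lower (4.08%, beside 6.73%). The 5 included Kcnd2, Kcnv2, Kcne1 and Kcnc2, the last named after its values were seen, and the 2 were Kcne4 and Kcna4. No member was higher in every A10i than in every DMSO heart (all genes 4.01%). Lower in every one were 2, Kcne4 and, by little, Kcna4, 4.08% beside 4.11% of all genes, so that this share does not stand out from the background.

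Kcne4 had the smallest adjusted p, with 0.455 of the DMSO level in A10i hearts (log2 -1.13 ± 0.23, adjusted p = 0.0931). DESeq2 called it (log2 -1.14, adjusted p = 0.00052) and no other member, limma-voom did not (adjusted p = 0.12), and over all alternatives to the edgeR fit its adjusted p lay between 0.00052 and 0.276. The share of all genes that DESeq2 called in this comparison is not given here, so that this call has no background beside it. Kcna4 stood at 0.535 of the DMSO level (log2 -0.90 ± 0.27, adjusted p = 0.185). Of the 12 neutrophil markers 6 passed the filter, all with lower values in A10i than in DMSO hearts (median -1.74, 0 past the threshold). The part of neutrophils in the Kcne4 and Kcna4 values was not tested. In the other direction Kcnv2 was at 1.99 times the DMSO level (log2 0.99 ± 0.31, adjusted p = 0.219), Kcne1 at log2 0.93 ± 0.41 (adjusted p = 0.358) and Kcnd2 at 0.32 ± 0.14 (adjusted p = 0.36).

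Of the 49 tested members 34 had a positive and 15 a negative difference between A10i and DMSO, with a median of 0.19 against 0.00 over all genes. Most marker lists leaned the same way, with medians of 0.19 for cardiomyocytes (11 of 15 positive), 0.43 for fibroblasts, 0.37 for macrophages and monocytes and 0.22 for smooth muscle and pericytes (11 of 12 positive each) and 0.10 for endothelium (9 of 12), against -1.74 for neutrophils. Many members are transcribed in the same cells, so that these counts are not independent. Kcnq1 (-0.00 ± 0.13), Kcna5 (-0.00 ± 0.14), Kcnk3 (0.01 ± 0.13) and Kcnd3 (0.00 ± 0.18) were near 0. Others with errors of like size were above 0, as were Kcnj8 (0.19 ± 0.11), Kcnj12 (0.22 ± 0.14), Kcnj11 (0.21 ± 0.16) and Kcnh2 (0.30 ± 0.17).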

How the data were processed

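RNA of 11 mouse hearts was sequenced in 3 sham, 4 DMSO and 4 A10i mice, grouped by their labels. The deposited values are raw counts per Ensembl 98 gene, which the authors made from strand-specific poly(A) libraries with GSNAP on mm10 and featureCounts 2.0.1 on uniquely aligned reads. The strand setting is not given in the sources used here, so values of genes that share exon bases with a gene on the opposite strand are uncertain. The 92 spike-in rows (14 to 55 counts per library) were left out of the 55513 rows. GENCODE M21 named 55240 of the 55421 genes. Totals were 21702623 to 29511768 counts.

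Each pair of groups was fitted alone with edgeR 4.0.16 (filterByExpr, TMM, robust quasi-likelihood F-test, two-sided) in R 4.3.3. P-values were adjusted over all genes tested (Benjamini-Hochberg, threshold 0.01). For normalised counts, each library was scaled to the mean effective size (total times TMM factor) of the 11 libraries, and the SE of a log2 fold change is its size divided by the square root of F. The level relative to cardiomyocyte markers used log2 normalised counts with a pseudocount of 0.5. Alternatives were other size factors, filters and thresholds, DESeq2 1.42.0, limma-voom 3.58.1, 1 fit of all libraries and the omission of each library. As a check of the code alone, the edgeR, DESeq2 and limma-voom fits were run on simulated counts with known changes. The simulation held no broad shift like that between infarcted and sham hearts, so it does not measure their accuracy here.

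The members and lists were chosen with earlier results of these data known. Fold changes are given for 20 genes of repolarising currents and related roles and, per comparison, for the 4 higher and 4 lower members with the smallest adjusted p under 0.01. Whether replicates came from separate experiments is not given beyond 1 mouse per library. Counts over genes cover all tested members, and the values of 1 member and of 1 other channel gene are not reported here.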

Additional observations from a re-analysis of the deposited data

Results flagged for a closer look

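In 4 of 99 groups of 4 mice with a mean of at least 10 normalised counts, 1 mouse lay apart from the other 3 by Dixon's criterion (the gap to the nearest mouse over the group's range). Chance gives about 1 in 20 such groups, so that 4 are within what chance gives. Kcna2 was at 110 normalised counts in the A10i mouse A117, with the other A10i mice at 60.8 to 64.4. Kcng2 was at 2731 in the A10i mouse A116, with the others at 3424 to 3495. Kcnj11 was at 2412 in the DMSO mouse A129, with the others at 3313 to 3453, and Kcnj3 was at 2517 in the DMSO mouse A128, with the others at 1398 to 1529. Without A128 the difference of Kcnj3 between DMSO and sham was called.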

How the results depend on the processing

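No called member turned its direction under any alternative. Against sham, Kcnj8, Kcnab2 and Kcne4 were called in all 16 fits of both comparisons, Kcnh2 and Kcnv2 in those of DMSO, and Kcnd3, Kcnn2, Kcnn4, Kcnj14 and Kcnj15 in those of A10i. Scaling by library size alone gave 6 lower genes in place of 12 for DMSO and ended the calls of Kcna7, Kcnd3, Kcnip3, Kcnj5, Kcnn1 and Kcnn2, and that of Kcnh2 for A10i. Without a low-count filter Kcnh2, Kcnip2, Kcnj5 and Kcnv2 lost their A10i calls, and with all 11 libraries in 1 fit Kcna7, Kcnd1, Kcnip2 and Kcnv2 did, as did Kcnd1 and Kcnj5 for DMSO. Limma-voom ended the calls of Kcnd1 and Kcnj15 for DMSO and of Kcnd1 and Kcnk13 for A10i, and a CPM minimum that of Kcnd1 for DMSO. In the other direction, DESeq2 added calls of Kcna4 and Kcnj3 for DMSO and of Kcne1, Kcnj3, Kcnj11 and Kcnma1 for A10i, library size alone those of Kcna4 (DMSO) and Kcne1 (A10i), a CPM minimum those of Kcne1 and Kcnj3 (A10i), limma-voom that of Kcnj3 (A10i) and no filter that of Kcnma1 (A10i). Omitting A128 added Kcnj3 and Kcnj12 for DMSO, and omitting A116 added Kcne1, Kcnj3 and Kcnj11 and omitting A117 added Kcnj3 and Kcnj11 for A10i. These cover the genes whose fold changes are given. An adjusted p under 0.05 gave 16 lower genes of the 51 tested for A10i against sham, beside 2984 of all 16971 genes tested. DESeq2 called 1 lower gene between A10i and DMSO. For the other alternatives, DESeq2 included, the share of all genes is not given here. Leaving out 1 library gave 2 to 7 higher and 4 to 13 lower genes for DMSO, and 5 to 9 higher and 5 to 11 lower genes for A10i, where each fit has fewer samples. The cause of the other changes was not tested. No paired analysis was possible because the labels give the groups no shared replicate numbers.

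The values that turned sign had not been called (log2). Against sham these were Kcne1 for DMSO, at 0.11 with library size alone, and for A10i Kcna4 at 0.15 and Kcnj12 at 0.02 with library size alone and Kcnj2 at -0.003 with limma-voom. Between A10i and DMSO, Kcnd3 was at -0.0029 with median-of-ratios size factors, -0.0044 with library size alone, -0.00077 without mitochondrial genes, -0.0043 without a filter, -0.0038 with DESeq2 and -0.0013 with all libraries in 1 fit. Kcnip2 was at 0.06 with limma-voom, and Kcnk3 at -0.01 with library size alone, -0.0014 without a filter and -0.0026 with limma-voom. With 1 library left out, the ranges that crossed 0 were -0.72 to 0.12 for Kcne1 and -0.02 to 0.11 for Kcnmb1 (DMSO against sham), and -0.27 to 0.12 for Kcna4, -0.01 to 0.17 for Kcnq1 and -0.10 to 0.12 for Kcnj2 (A10i against sham). Between A10i and DMSO they were -0.16 to 0.12 for Kcnd3, -0.26 to 0.19 for Kcnip2, -0.07 to 0.13 for Kcna5, -0.11 to 0.07 for Kcnq1, -0.08 to 0.27 for Kcnj3, -0.09 to 0.09 for Kcnk3, -0.27 to 0.40 for Kcnn4, -0.20 to 0.17 for Kcnab2 and -0.32 to 0.17 for Kcnk13. Kcna3 (at most 15 counts) and Kcnma1 (at most 25) rest on few counts in every library.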
